A study of Mus musculus with 6 samples.

Results

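The insulin receptor, AKT and FOXO axis was taken as 9 genes, Insr, Irs1, Irs2, Pik3r1, Akt1, Akt2, Foxo1, Foxo3 and Mtor, which were found by symbol among the 52459 genes of the count table. All 9 were present, and all 9 were among the 17032 genes that passed the filter on low counts. Their levels were measured by RNA-Seq in the livers of 6 male C57BL6J mice of the Alb-Cre/Cas9 F1 generation. In these mice Cas9 expression depends on Cre, which the albumin promoter drives in hepatocytes. Mice received AAV8-U6-sgCtrl (sgCtrl, mice 5.1, 7.1 and 7.2) or AAV8-U6-sgPrdx2 (sgPrdx2, mice 1.1, 1.3 and 3.2) in a vein when they were 4 to 5 weeks old. Both groups were given diethylnitrosamine (DEN, a carcinogen of the liver) at 100 mg/kg 3 weeks later. From 1 week after that they were kept for 6 months on CDAHFD, a high-fat diet that lacks choline and is adapted in its amino acids, so that every liver, control livers included, came from a mouse with DEN and CDAHFD at 8 months of age. No liver of an untreated mouse was analysed here. Whole liver was sequenced, which also holds hepatocytes that the vector did not reach and all other cells of the organ, and a smaller number of cells of a type and less RNA per cell cannot be told apart.

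Insulin binds its receptor, a tyrosine kinase, which phosphorylates the docking proteins IRS1 and IRS2. These recruit phosphoinositide 3-kinase (PI3K), whose lipid product brings AKT to the membrane, and active AKT drives the mTOR complex and keeps the FOXO transcription factors out of the nucleus. In the fasted liver FOXO1 is nuclear and turns on genes of glucose output, and in the fed liver the pathway favours lipid synthesis. Much of this signalling runs through phosphorylation, which RNA levels do not measure. The comparison asked whether the RNA of the pathway's own components differed between livers with and without the guide against Prdx2, which encodes a peroxide-reducing enzyme.

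The libraries held 37462102 to 56865293 counts, so that 3 counts correspond to 0.0555 to 0.0921 normalised CPM (the count scaled to a common library size), and each of the 9 genes had 417 to 7754 counts in every liver. Prdx2 itself was counted 4783, 5247 and 6939 times in the sgCtrl livers and 4345, 6052 and 4858 times in the sgPrdx2 livers, with a log2 fold change of 0.01 ± 0.18 (SE). An edit by Cas9 need not change the number of RNA reads, so these counts do not check the labels. Hepatocyte markers were abundant in every liver, and their summed level was 81199 to 88968 CPM in sgCtrl and 141461 to 185446 CPM in sgPrdx2 livers, with 15 of 15 markers higher and 5 called. Macrophage markers were lower for 14 of 14 genes (2 called), and 3.33% of all genes tested were called. The first principal component held 48.6% of the variance and separated the groups. The sgCtrl livers 5.1, 7.1 and 7.2 were at -33.4, -20.7 and -23.3. The sgPrdx2 livers 1.1, 1.3 and 3.2 were at 18.3, 10.8 and 48.3, with 3.2 farthest out.

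None of the 9 genes passed the test between the groups. Of the 9, 6 were measured at higher and 3 at lower mean levels in the sgPrdx2 livers, with log2 fold changes of -0.25 to 0.25, adjusted p of 0.455 to 0.873 (edgeR quasi-likelihood test, Benjamini-Hochberg) and overlapping groups for all 9. No member had an unadjusted p under 0.05, and DESeq2 called none. Over all genes tested, 567 were called (3.33%), of which 305 had higher (1.79%) and 262 lower levels (1.54%) with the Prdx2 guide. The groups did not overlap for 34.2% of all genes, and 24.9% had an unadjusted p under 0.05. The median log2 fold change of the 9 members was 0.06, beside -0.02 over all genes. For 8 of the 9 the 95% interval of the fold change lay within 2-fold in either direction, and Irs2 was the exception.

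**Figure D1:**
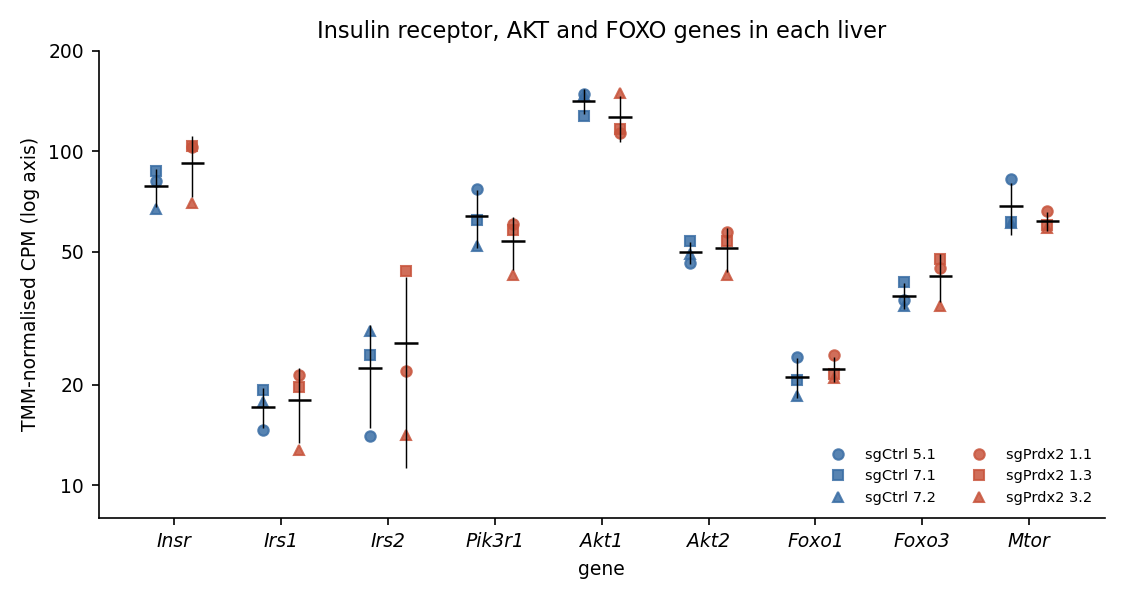
TMM-normalised CPM (log axis) of the 9 genes in each of the 3 sgCtrl (blue) and 3 sgPrdx2 (red) livers, with a marker shape for each mouse, the group mean as a bar and ± 1 SD as a line. The groups overlap for all 9 genes, and Irs2 has the widest spread, from 14.0 to 43.8 CPM.

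Levels can be compared between genes only per length of transcript, and on that scale Akt1 stood first. Its mean over the 6 livers was 49.8 CPM per kilobase of its longest coding transcript, followed by Akt2 at 11.1, Insr at 9.13, Pik3r1 at 8.27, Mtor at 7.60, Foxo3 at 5.79, Irs2 at 3.89, Foxo1 at 2.51 and Irs1 at 1.92 CPM per kilobase. Akt1 and Akt2 were the only neighbours in this order whose values did not overlap over the 6 livers. The lowest Akt1 value was 42.1 CPM per kilobase and the highest Akt2 value 12.6. Within each liver Akt2 was above Insr in 6 of 6, while Insr was above Pik3r1, and Irs2 above Foxo1, in 4 of 6 livers each. Liver transcripts may differ in length from the longest coding form, so the order holds for these annotated lengths.

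Insr encodes the receptor itself. It lies at chr8:3122061-3279617 on the minus strand (GRCm38) and has 21 exons in its longest coding transcript of 9355 bases, the longest of the 9. Its level was 81.3, 87.1 and 67.3 CPM in sgCtrl livers 5.1, 7.1 and 7.2 and 103, 104 and 69.9 CPM in sgPrdx2 livers 1.1, 1.3 and 3.2. Livers 1.1 and 1.3 were above every sgCtrl liver, and 3.2 was within their range. The means were 78.6 ± 10.2 and 92.2 ± 19.3 CPM (SD, n = 3 each), a log2 fold change of 0.23 ± 0.19 (SE, 95% interval -0.21 to 0.67, edgeR adjusted p = 0.477).

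Irs1 and Irs2 encode the main docking proteins of the receptor in liver, and Irs2 is known as a gene that FOXO1 turns on in fasting. Irs1 (chr1:82233101-82291416, minus strand, 2 exons) was at 14.6, 19.3 and 17.8 CPM in sgCtrl and 21.4, 19.7 and 12.8 CPM in sgPrdx2 livers, with sgPrdx2 livers at both ends of the range. Its log2 fold change was 0.06 ± 0.21 (SE, edgeR adjusted p = 0.869). Irs2 (chr8:10984681-11008458, minus strand, 2 exons) was at 14.0, 24.5 and 29.0 CPM in sgCtrl and 22.0, 43.8 and 14.2 CPM in sgPrdx2 livers. Its highest liver was 3.12 times its lowest, more than for any other member, and both groups held a liver near 14 CPM. The log2 fold change of 0.25 ± 0.41 (SE, edgeR adjusted p = 0.738) had a 95% interval of -0.71 to 1.198, which includes a 2-fold increase. Irs1 shares 30.5% of its 50-base stretches with the antisense gene Gm9747, which had 0 counts in 5 livers and 2 in sgPrdx2 1.3, and the strandedness of the counting is not given in the sources used here.

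The promoters of both IRS genes carry a short motif to which FOXO factors are known to bind in insulin response elements, and they are shown for the letters that they share with Igfbp1, the gene in which such an element is best known. The 250 bases before the start are printed for Irs1 (chr1:82291440-82291689, minus strand), Irs2 (chr8:11008930-11009179, minus strand) and Igfbp1 (chr11:7197537-7197786, plus strand), from RefSeq on GRCm38.p6, with CAAAACA or its reverse complement TGTTTTG in capitals:
Irs1: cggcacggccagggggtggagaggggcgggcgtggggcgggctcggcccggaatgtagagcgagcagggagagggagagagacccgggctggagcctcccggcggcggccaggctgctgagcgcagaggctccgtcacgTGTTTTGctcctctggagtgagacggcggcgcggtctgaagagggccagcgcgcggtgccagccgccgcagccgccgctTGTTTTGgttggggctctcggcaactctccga
Irs2: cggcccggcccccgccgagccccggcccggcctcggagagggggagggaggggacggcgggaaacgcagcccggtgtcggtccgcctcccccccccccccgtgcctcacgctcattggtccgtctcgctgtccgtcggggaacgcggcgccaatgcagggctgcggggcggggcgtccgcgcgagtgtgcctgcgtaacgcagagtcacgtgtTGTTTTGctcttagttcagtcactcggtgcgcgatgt
Igfbp1: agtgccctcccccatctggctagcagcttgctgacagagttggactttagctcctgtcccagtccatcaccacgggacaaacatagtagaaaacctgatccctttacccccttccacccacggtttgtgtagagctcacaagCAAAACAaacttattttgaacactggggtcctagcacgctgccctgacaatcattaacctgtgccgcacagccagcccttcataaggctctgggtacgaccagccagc
Irs1 held the motif at 2 positions and Irs2 and Igfbp1 at 1 each, and in the IRS genes it stood in the opposite orientation. Windows of 250 bases before to 50 after a start were given for 8 of the 9 members (13 windows). Insr had no window, so its promoter was not searched. CAAAACA was in 2 of these 13 and in 6.28% of all 32851 windows, and GTAAACA (or TGTTTAC) in 1 of 13, at Akt1, and in 3.65% of all windows. A match describes letters and not binding.

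Of the 3 genes printed, Irs1 was highest in sgPrdx2 1.1, Irs2 in sgPrdx2 1.3 and Igfbp1 in sgCtrl 7.2. Igfbp1, an insulin-repressed binding protein of IGF1 that was named here after its values were seen, was at 86.1, 115 and 290.4 CPM in sgCtrl and 48.4, 182 and 32.5 CPM in sgPrdx2 livers, with a log2 fold change of -0.90 ± 0.68 (SE, edgeR adjusted p = 0.442). G6pc, the last enzyme of glucose release, whose window also holds CAAAACA at 1 position, was likewise chosen after its values were seen. It was at 23.0, 92.8 and 184 CPM in sgCtrl and 50.6, 195 and 59.7 CPM in sgPrdx2 livers. It was lowest in sgCtrl 5.1 and highest in sgPrdx2 1.3, which are also the lowest and the highest liver for Irs2. The feeding state of each mouse at death is not among the labels used here. Within each group Igfbp1 and G6pc differed several-fold between mice, and the log2 fold change of G6pc was 0.03 ± 0.74 (SE, edgeR adjusted p = 0.987).

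Pik3r1 encodes p85alpha, the regulatory subunit that couples PI3K to the IRS proteins. It lies at chr13:101680563-101768217 on the minus strand and has 16 exons. It was at 77.2, 62.1 and 52.2 CPM in sgCtrl and 60.7, 58.0 and 42.8 CPM in sgPrdx2 livers. Only 3.2 was below the sgCtrl range. Its log2 fold change was -0.25 ± 0.19 (SE, 95% interval -0.69 to 0.20, edgeR adjusted p = 0.457). It was -0.094 without sgPrdx2 3.2 and -0.087 without sgCtrl 5.1, the liver with the highest level. Without sgCtrl 7.1, sgCtrl 7.2, sgPrdx2 1.1 or sgPrdx2 1.3 it was -0.26, -0.37, -0.34 or -0.28. With the correction for transcript length and GC content described below it was -0.0085.

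Akt1 and Akt2 encode the kinases that carry the signal on, and Akt2 is the form best known for the action of insulin on glucose. Akt1 (chr12:112653821-112674884, minus strand, 14 exons) was at 149, 128 and 148 CPM in sgCtrl and 113, 117 and 149.7 CPM in sgPrdx2 livers. Livers 1.1 and 1.3 lay below every sgCtrl liver, while 3.2 was the highest of the 6, and the log2 fold change was -0.16 ± 0.16 (SE, edgeR adjusted p = 0.551). Akt2 (chr7:27591552-27640826, plus strand, 14 exons) was at 46.4, 53.9 and 49.3 CPM in sgCtrl and 57.3, 54.0 and 42.6 CPM in sgPrdx2 livers, with the order of the sgPrdx2 livers turned around. Its log2 fold change was 0.04 ± 0.15 (SE, edgeR adjusted p = 0.873). Akt2 shares 16.0% of its 50-base stretches with the pseudogene Akt2-ps, which had 141 to 330 counts beside 1388 to 2923 for Akt2, so that some reads of either could have been counted on the other.

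Foxo1 and Foxo3 encode the factors that AKT holds in the cytoplasm. Foxo1 (chr3:52268336-52353221, plus strand, 3 exons) was at 24.2, 20.7 and 18.5 CPM in sgCtrl and 24.5, 21.5 and 20.9 CPM in sgPrdx2 livers, with overlapping ranges. Its log2 fold change was 0.08 ± 0.14 (SE, edgeR adjusted p = 0.749). Foxo3 (chr10:42181841-42276755, minus strand, 4 exons) was at 36.0, 40.6 and 34.4 CPM in sgCtrl and 44.9, 47.7 and 34.4 CPM in sgPrdx2 livers. As for Insr, 1.1 and 1.3 were above all sgCtrl livers and 3.2 was not, and the log2 fold change was 0.20 ± 0.15 (SE, edgeR adjusted p = 0.455).

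Mtor encodes the kinase at the core of both mTOR complexes, one downstream and one upstream of AKT. It lies at chr4:148448611-148557683 on the plus strand and has 58 exons. It was at 82.4, 61.6 and 61.1 CPM in sgCtrl and 66.4, 60.1 and 59.2 CPM in sgPrdx2 livers. A single liver, sgCtrl 5.1, stood above the rest, and the log2 fold change of -0.14 ± 0.15 (SE, edgeR adjusted p = 0.587) was 0.011 without it.

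The 3 gene pairs of like function were also compared within each liver, as the log2 ratio of their counts, which does not depend on the scaling between libraries. The ratio of Irs2 to Irs1 was 0.33 ± 0.38 in sgCtrl and 0.44 ± 0.61 in sgPrdx2 livers (SD, n = 3 each), a difference of 0.11 (two-sided exact permutation test, p = 0.8). For Akt2 to Akt1 the log2 ratio was -1.50 ± 0.23 and -1.30 ± 0.45, a difference of 0.20 (exact permutation p = 0.5). Single sgPrdx2 livers were at -0.98, -1.11 and -1.81, the last in 3.2. Without 3.2 the difference was 0.46, with both remaining livers above every sgCtrl liver (exact permutation p = 0.2). This was the largest difference with a liver left out, and the range is given in the last section. Akt1 (2690 bases) and Akt2 (4544 bases) differ in transcript length, so a length-dependent difference between libraries would enter this ratio. For Foxo3 to Foxo1 the log2 ratio was 0.81 ± 0.21 and 0.91 ± 0.22, a difference of 0.10 (exact permutation p = 0.7). All 3 had an adjusted p of 0.8, and 3 livers against 3 cannot give a p below 0.1.

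The liver farthest out on the first principal component, sgPrdx2 3.2, moved several of the 9 genes. Irs1, Pik3r1, Akt2 and Mtor were lowest, and Akt1 was highest, in sgPrdx2 3.2. This library also had the steepest relation of level to transcript length: the median deviation of a gene from its mean over the 6 livers was 0.33 (log2) in the shortest of 5 equal classes of transcript length and -0.33 in the longest. In the other 5 livers these medians lay between -0.16 and 0.16. Between the groups, the median log2 fold change went from 0.24 in the shortest class through 0.09, -0.02 and -0.12 to -0.19 in the longest. The transcripts of the members lay from the 47.4th to the 97.3rd percentile of length, with Akt1 (2690 bases) as the shortest. Whether the length trend is technical or part of the livers' biology was not tested.

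A smooth trend on transcript length and GC content was removed from each library. With this correction 1 of the 9 genes was called, beside 6.52% of all genes. For 3 of the 9 the groups did not overlap. That share was no larger than the 35.1% of all genes without overlap under the same correction. Insr was then at 74.4, 74.4 and 66.2 corrected CPM in sgCtrl and 103, 99.6 and 95.04 in sgPrdx2 livers. All 3 sgPrdx2 livers were above all sgCtrl livers, and the corrected log2 fold change was 0.47 (edgeR adjusted p = 0.0412). Foxo3 was at 33.1, 37.1 and 33.6 corrected CPM in sgCtrl and 45.8, 47.2 and 41.4 in sgPrdx2 livers, again without overlap, with a corrected log2 fold change of 0.37 that missed the threshold (edgeR adjusted p = 0.0607). Akt1 was at 147, 137 and 149.9 corrected CPM in sgCtrl and 119, 119 and 131 in sgPrdx2 livers, all 3 below the sgCtrl range, with -0.23 on the log2 scale (edgeR adjusted p = 0.191). The other 6 members overlapped between the groups after the correction.

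**Figure D2:**
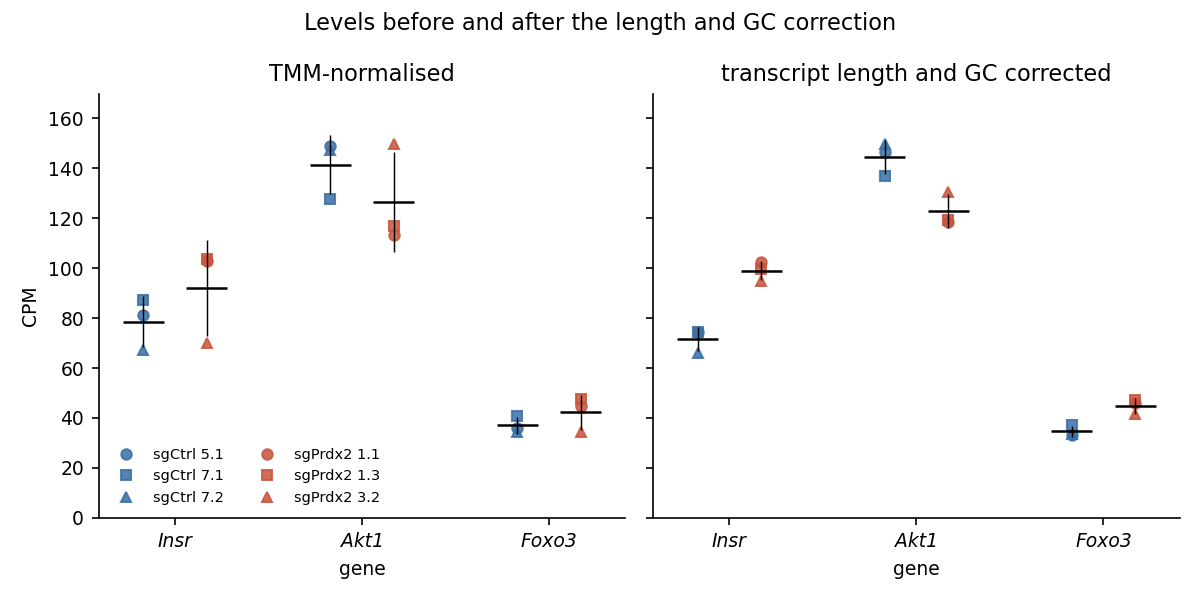
CPM of Insr, Akt1 and Foxo3 in each liver with TMM normalisation (left) and after removal of each library's trend on transcript length and GC content (right), with the group mean as a bar and ± 1 SD as a line. On the left sgPrdx2 3.2 (red triangle) lies apart from the other sgPrdx2 livers, and on the right the groups do not overlap for the 3 genes.

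Uncorrected, the groups overlapped for Insr, Foxo3 and Akt1 through 3.2 alone. Leaving it out therefore had to enlarge their log2 fold changes and is no separate support. Without 3.2 the uncorrected fit gave 0.41 for Insr (edgeR adjusted p = 0.129), 0.33 for Foxo3 (0.109) and -0.29 for Akt1 (0.199), and 2 members had an unadjusted p under 0.05. The other members were then at 0.27 (Irs1), 0.55 (Irs2), -0.094 (Pik3r1), 0.17 (Akt2), 0.14 (Foxo1) and -0.10 (Mtor) on the log2 scale. Leaving out sgPrdx2 1.1 or 1.3 instead gave 0.15 and 0.15 for Insr, 0.15 and 0.12 for Foxo3, and -0.086 and -0.088 for Akt1. With the correction and without 3.2 together, an alternative added after the trend was seen, none of the 9 genes was called, and Insr was at 0.50 (edgeR adjusted p = 0.055) and Foxo3 at 0.42 (0.056). Of the settings run, Insr was called in the one with the correction and all 6 livers. Scaling by total counts alone, without TMM factors, shifted the median of all genes to -0.39 and called 19.1% of them, among the members Akt1 at -0.54 (edgeR adjusted p = 0.0392). All 9 members were then negative, and relative to the median of all genes their median was 0.09, beside 0.08 with TMM.

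**Figure D3:**
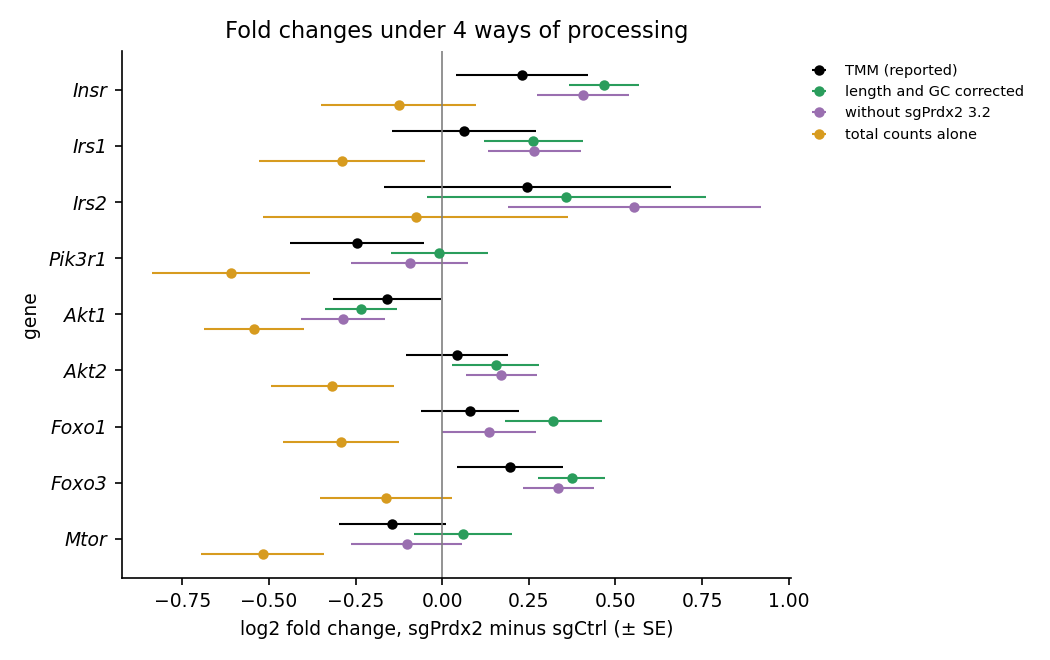
log2 fold change (sgPrdx2 minus sgCtrl, ± SE) of the 9 genes with TMM, with the length and GC correction, without sgPrdx2 3.2, and with total counts alone. With TMM the values lie between -0.25 and 0.25, and with total counts alone all 9 lie below 0.

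Across the 6 livers some members varied together, which is given as a description only, since the points share the libraries and their length trend. Pearson's r of log2 CPM was 0.99 for Irs1 and Akt2 and 0.96 for Insr and Foxo3. It was negative for Akt1 with Foxo3 (-0.97), with Insr (-0.93) and with Akt2 (-0.90). Among the 9267 genes whose mean reached 10 CPM, those most like Foxo3 were 2610008E11Rik, Adipor2 (a receptor of adiponectin) and Hipk3, with r of 0.998, 0.997 and 0.996, and 57 genes reached 0.95. For Pik3r1 they were Tbc1d24, Ubl3 and Ugt2b35 (r of 0.99 each, 44 genes at 0.95 or more), and for Insr Slc4a2, Mpdz and Met, the receptor of hepatocyte growth factor (r of 0.99 each, 62 genes). With 6 livers such values arise for many genes.

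The wider pathway was read from 7 lists with 162 distinct genes, the 9 members among them, of which 159 were tested. Of these 6 were called (3.77%, beside 3.33% of all genes), 2 higher and 4 lower. Of the 159, 26.4% had an unadjusted p under 0.05, beside 24.9% of all genes. The groups did not overlap for 56 (35.2%), close to the share over all genes. Their median log2 fold change was -0.07. DESeq2 called 21 of them, and 12.4% of all genes. All 6 edgeR calls were lost when sgCtrl 5.1, sgCtrl 7.2, sgPrdx2 1.1 or sgPrdx2 1.3 was left out, and with each of these 4 livers left out no gene of the whole table was called. Without sgCtrl 7.1 the calls of Inpp5d and Pik3cg were lost, and without sgPrdx2 3.2 those of Apoc3 and Pik3cg. The length and GC correction left 5 of the 6 calls and took Pik3cg to an adjusted p of 0.0611 (edgeR).

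**Figure D4:**
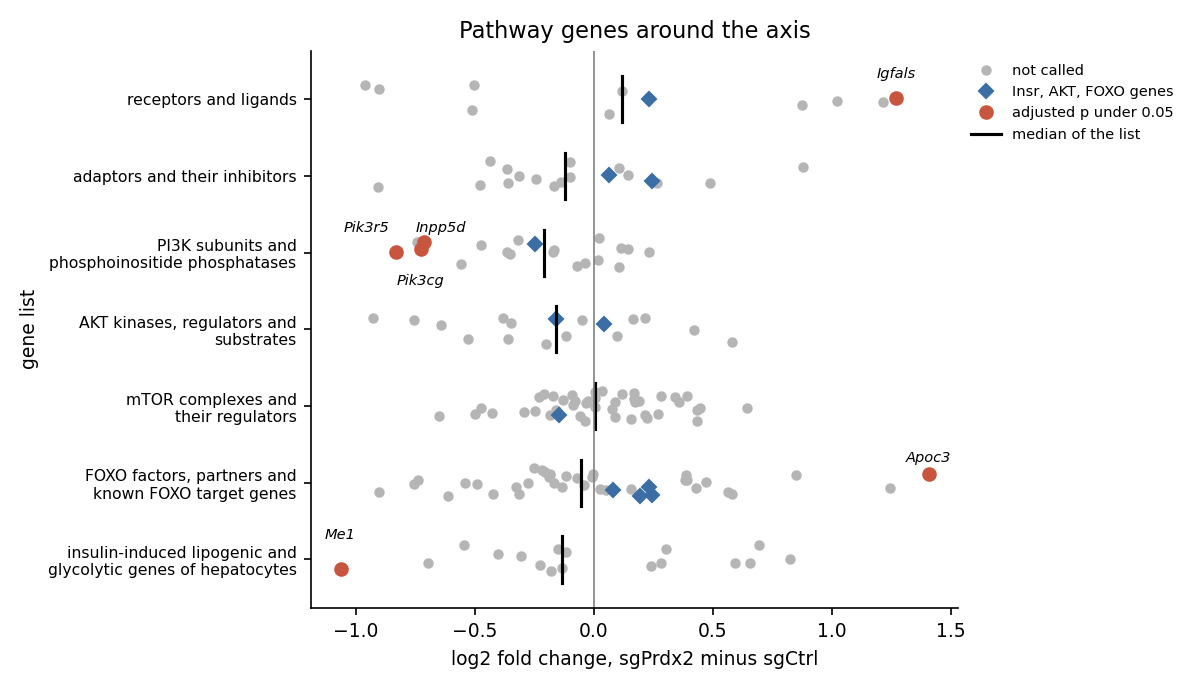
log2 fold change (sgPrdx2 minus sgCtrl) of each tested gene of the 7 pathway lists, with the 9 axis genes as blue diamonds, genes with an adjusted p under 0.05 in red and the list's median as a black bar. Igfals and Apoc3 lie on the right, Me1 and 3 PI3K genes on the left, and the list medians lie between -0.21 and 0.12.

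Among the 11 receptors and ligands, 1 was called by edgeR and the median was 0.12. DESeq2 called 3 of the 11, beside 12.4% of all genes. Igfals, the liver-made subunit that holds IGF1 in the circulating complex, was at 53.9, 63.0 and 43.1 CPM in sgCtrl and 124, 98.2 and 164 CPM in sgPrdx2 livers. All sgPrdx2 livers were above all sgCtrl livers, with a log2 fold change of 1.27 ± 0.22 (SE, edgeR adjusted p = 0.0394). Igf1, the hormone itself, was at 198 to 346 CPM in sgCtrl and 424 to 552 CPM in sgPrdx2 livers, with a log2 fold change of 0.87 ± 0.22 (SE) that missed the threshold (edgeR adjusted p = 0.0709). Igfbp2, another binding protein, was at 494 to 669 and 1004 to 2119.6 CPM (1.22 ± 0.31, edgeR adjusted p = 0.0696), and its log2 fold change was 0.78 without sgPrdx2 3.2. All 3 are made by hepatocytes, whose summed markers were 1.67 to 2.20 times the sgCtrl mean in the sgPrdx2 livers, and the part of this in their levels was not tested. Ins1 and Ins2, the insulin genes, had 0 counts in every liver, which allows up to 0.0921 CPM.

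None of the 18 tested adaptors and inhibitors was called by edgeR (median -0.12, 1 called by DESeq2). An unadjusted p under 0.05 was found for 5 (27.8%), beside 24.9% of all genes. The smallest p belonged to Gab2, a docking protein of immune and other cells, at 15.1 to 16.7 CPM in sgCtrl and 5.96 to 9.82 CPM in sgPrdx2 livers (-0.90 ± 0.20, edgeR adjusted p = 0.0541). It was called with the length and GC correction (-0.74, edgeR adjusted p = 0.0312). Ptpn1, the phosphatase that switches the receptor off, was at 68.0 to 78.0 and 50.2 to 61.9 CPM (-0.44 ± 0.14, edgeR adjusted p = 0.107), without overlap. Irs3, a further docking protein, was low, at 22 to 62 counts per liver (0.88 ± 0.28, edgeR adjusted p = 0.115).

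The 20 PI3K subunits and phosphoinositide phosphatases held 3 of the 6 edgeR calls, all lower in sgPrdx2 livers, with a median of -0.21. DESeq2 called 4 of the 20. Over all genes edgeR called 3.33% and DESeq2 12.4%. Pik3r5, the regulatory subunit of the PI3K that answers to G protein-coupled receptors, was at 30.9, 24.0 and 26.2 CPM in sgCtrl and 14.6, 16.0 and 14.9 CPM in sgPrdx2 livers (-0.83 ± 0.13, edgeR adjusted p = 0.0358). Pik3cg, the catalytic subunit it pairs with, was at 10.3, 9.48 and 8.47 and at 5.88, 5.99 and 5.19 CPM (-0.73 ± 0.15, edgeR adjusted p = 0.0480). Inpp5d, which encodes the phosphatase SHIP1, was at 43.0, 35.7 and 41.99 and at 26.5, 26.3 and 20.7 CPM (-0.71 ± 0.14, edgeR adjusted p = 0.0466). In each of the 3 genes every sgPrdx2 liver was below every sgCtrl liver. They are known as genes of blood cells rather than of hepatocytes.

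Subunits that serve the insulin receptor are given beside these, and a difference between the 2 kinds was not tested. Over the 20 genes of the list 14 were lower and 6 higher. Pik3r1, described above, had a log2 fold change of -0.25 ± 0.19 (SE). Pik3ca, the catalytic partner of p85alpha in insulin signalling, was chosen for comparison after its values were seen, and was at 34.9 to 40.6 CPM in sgCtrl and 35.1 to 41.8 CPM in sgPrdx2 livers (0.02 ± 0.12, edgeR adjusted p = 0.928). Pik3cd, the leukocyte catalytic subunit and also chosen afterwards, was at 29.2 to 33.3 and 19.2 to 22.6 CPM (-0.56 ± 0.12, edgeR adjusted p = 0.0530). Macrophage and lymphocyte markers were measured at lower levels as well, as were most markers of stellate cells, endothelium and cholangiocytes. Stellate cell and fibroblast markers (10 lower, 2 higher) summed to 2369 to 2720 CPM in sgCtrl and 1734 to 1805 CPM in sgPrdx2 livers. Endothelial markers (8 lower, 1 higher) summed to 438 to 457 and 333 to 419 CPM. Cholangiocyte markers (7 lower, 1 higher) summed to 1679 to 1906 and 1263 to 1447 CPM. The summed level of the 14 macrophage markers was 4732 to 5660 CPM in sgCtrl and 3291 to 4360 CPM in sgPrdx2 livers, and that of the 10 lymphocyte markers, 8 of them lower, was 98.5 to 116 and 58.6 to 82.4 CPM. Of 5 tested neutrophil markers 3 were lower and 2 higher, with none called by edgeR or DESeq2 and 2 at an unadjusted p under 0.05, and their sums overlapped, at 7.40 to 13.5 CPM in sgCtrl and 9.02 to 12.4 CPM in sgPrdx2 livers. The part of these cell types in the fall of the 3 PI3K genes was not tested.

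**Figure D5:**
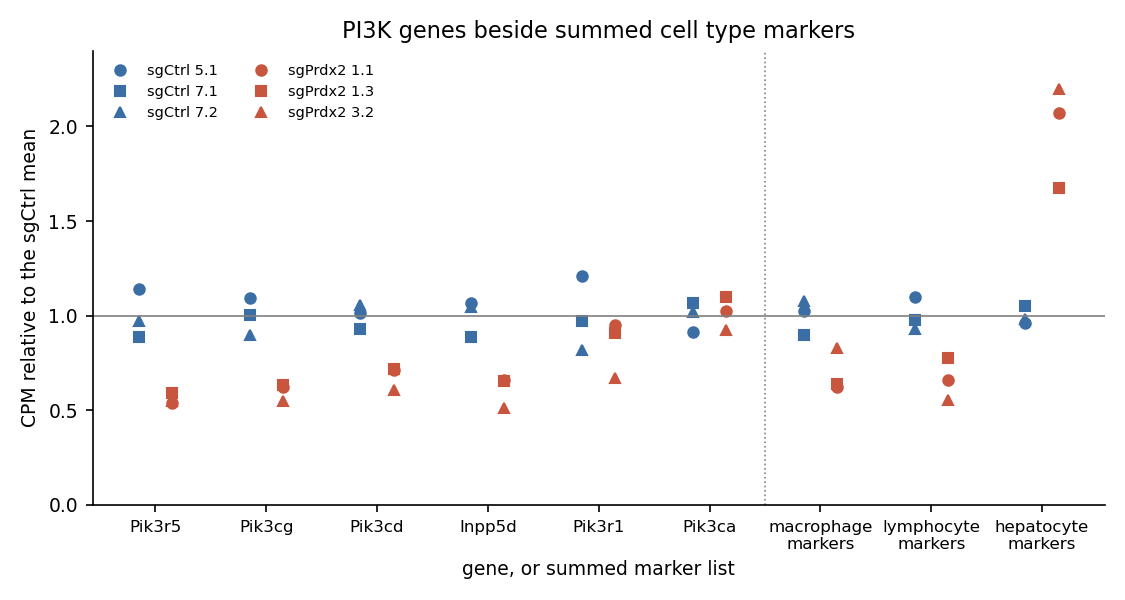
CPM of 6 genes of PI3K signalling and the summed CPM of macrophage, lymphocyte and hepatocyte markers in each liver, divided by the sgCtrl mean (grey line at 1). Pik3r5, Pik3cg, Pik3cd and Inpp5d and the macrophage and lymphocyte sums lie lower in all sgPrdx2 livers (red), Pik3r1 and Pik3ca overlap between groups, and hepatocyte markers lie at 1.67 to 2.20.

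None of the 17 AKT kinases, regulators and substrates was called by edgeR (median -0.16, 2 called by DESeq2). An unadjusted p under 0.05 was found for 4 (23.5%), beside 24.9% of all genes. Tbc1d1, a substrate that controls glucose transporter traffic, was at 20.4 to 25.2 CPM in sgCtrl and 12.4 to 16.4 CPM in sgPrdx2 livers (-0.64 ± 0.15, edgeR adjusted p = 0.0587). Its groups did not overlap, and DESeq2 called it. Phlpp2, a phosphatase that turns AKT off, was at 4.85 to 6.51 and 3.04 to 4.64 CPM (-0.53 ± 0.21, edgeR adjusted p = 0.173).

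The 44 genes of the mTOR complexes and their regulators had a median of 0.01, with none called by edgeR and 1 called by DESeq2. Of the 44, 9 (20.5%) had an unadjusted p under 0.05, beside 24.9% of all genes. Rragd, a GTPase that recruits mTOR to the lysosome, was at 23.8 to 36.0 CPM in sgCtrl and 17.9 to 18.6 CPM in sgPrdx2 livers (-0.65 ± 0.17, edgeR adjusted p = 0.0722). Nprl2, which restrains mTOR when amino acids are scarce, was at 14.2 to 16.5 and 17.9 to 24.7 CPM (0.43 ± 0.16, edgeR adjusted p = 0.144). Lamtor3, of the lysosomal anchor of mTOR, was at 15.4 to 19.2 and 10.5 to 13.7 CPM (-0.43 ± 0.16, edgeR adjusted p = 0.149).

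Of 40 tested FOXO factors, partners and known target genes, 1 was called by edgeR, Apoc3, and the median was -0.06. DESeq2 called 8 of the 40, beside 12.4% of all genes. Apoc3, an apolipoprotein that slows the clearance of triglycerides and is repressed by insulin through FOXO1, was at 469, 741 and 438 CPM in sgCtrl and 1476, 1110.4 and 1785 CPM in sgPrdx2 livers (1.41 ± 0.26, edgeR adjusted p = 0.0409). Klf15, a factor of amino acid use in fasting, was at 49.2 to 77.3 and 99.7 to 135 CPM (0.85 ± 0.21, edgeR adjusted p = 0.0660). Pck1, a key enzyme of glucose synthesis, was at 382, 665 and 784 CPM in sgCtrl and 1225, 2041 and 1066 CPM in sgPrdx2 livers (1.24 ± 0.33, edgeR adjusted p = 0.0769). All 3 were without overlap, and Pck1 was also lowest in sgCtrl 5.1 and highest in sgPrdx2 1.3. Pck1 and G6pc are on the hepatocyte marker list too. Summed hepatocyte markers were 1.67 to 2.20 times the sgCtrl mean in the sgPrdx2 livers. The part of this in the levels of Apoc3, Klf15 and Pck1 was not tested. Over the list 23 genes were lower and 17 higher, and 11 (27.5%) had an unadjusted p under 0.05, beside 24.9% of all genes.

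Of 17 tested lipogenic and glycolytic genes that insulin induces in hepatocytes, 1 was called by edgeR, Me1, and the median was -0.13. DESeq2 called 2 of the 17, beside 12.4% of all genes. Me1, the malic enzyme that supplies NADPH for fatty acid synthesis, was at 50.6, 34.4 and 53.8 CPM in sgCtrl and 21.7, 21.6 and 23.1 CPM in sgPrdx2 livers (-1.06 ± 0.18, edgeR adjusted p = 0.0373). Insig1 and Srebf1, the retention partner and the precursor of the lipogenic factor SREBP1, had values in the other direction. Insig1 was at 43.4 to 104 and 123 to 154 CPM (0.82 ± 0.29, edgeR adjusted p = 0.140; 0.55 without sgCtrl 5.1), and Srebf1 at 104 to 185 and 203 to 315 CPM (0.69 ± 0.26, edgeR adjusted p = 0.154). Neither passed the test.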

How the data were processed

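Livers were flash frozen and RNA was extracted with Trizol. The authors deposited raw counts per gene symbol for each liver, and HISAT2, HTSeq, DESeq2 and the build GRCm38 are named in the submitters' processing notes, whereas versions, annotation and strandedness are not given in the sources used here. The counts are whole numbers without normalization. A second table with the authors' own DESeq2 comparison (means, fold changes, errors, statistics and p-values) was not used.

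From these counts, edgeR 4.0.16 (R 4.3.3) kept 17032 genes by filterByExpr (minimum count 10), scaled the libraries by TMM and tested the groups with the quasi-likelihood test (glmQLFit, glmQLFTest) over all 6 livers without covariates. A gene was called at an adjusted p (Benjamini-Hochberg, over all genes tested) under 0.05. The standard error was taken as the size of the fold change over the root of F, and the common coefficient of biological variation was 0.213. The labels give each liver its own replicate, no batch and no numbers shared between groups. Within groups the leading number is shared by 7.1 and 7.2 and by 1.1 and 1.3. What that number stands for is not given in the labels. Paralog ratios used log2((count + 0.5)/(count + 0.5)) and a two-sided exact permutation test. The scripts were tested on simulated data.

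Coordinates, transcript lengths and shared stretches of 50 bases come from the GENCODE annotation of GRCm38, which may differ from the annotation behind the counts. The length and GC correction removed a smooth trend of each library (spline with 5 degrees of freedom) over 16572 genes with a length. The members and the gene lists were chosen with earlier results of these data known. Text names all 9 members, Prdx2, the called genes of each pathway list and, with fewer than 3 called, those of smallest p up to 3, and for 3 members of smallest p the 3 genes most like them. A gene that this rule names is not reported here. Alternatives were RLE, upper-quartile or total-count scaling, other filters, DESeq2 1.42.0, adjusted p under 0.10, the correction, and leaving out each liver.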

Additional observations from a re-analysis of the deposited data

How the results depend on the processing

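No paired analysis was possible because the groups share no replicate numbers. The number of members called (0) became 1 with total counts alone (Akt1) and 1 with the length and GC correction (Insr), and was 0 under every other alternative that was run. The number of members lower in sgPrdx2 livers (3) was 9 with total counts alone and 3 to 5 with a liver left out. Their median log2 fold change (0.06) was -0.29 with total counts alone, 0.26 with the correction, 0.24 with the correction and without sgPrdx2 3.2 (added after seeing the data), and -0.04 to 0.17 with a liver left out. The number of pathway genes called (6) was 38 with total counts alone, 15 without a filter, 13 with the correction, 21 with DESeq2, 16 at an adjusted p under 0.10, and 0 to 6 with a liver left out. Over all genes tested, 3247 were called with total counts alone, 1128 without a filter, 1111 with the correction, 2118 with DESeq2 and 480 with the correction and without 3.2, against 567. With a liver left out 0 to 619 were called.

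The sign of 16 of 126 member values changed. With total counts alone Akt2 was at -0.32, Foxo1 at -0.29, Foxo3 at -0.16, Insr at -0.13, Irs1 at -0.29 and Irs2 at -0.077. Mtor was at 0.059 with the correction and 0.0060 with the correction and without 3.2. With a liver left out, log2 fold changes were -0.043 to 0.17 for Akt2, -0.0063 to 0.19 for Foxo1, -0.080 to 0.27 for Irs1, -0.30 to 0.55 for Irs2 and -0.22 to 0.011 for Mtor. Those of the remaining members kept their sign, at 0.13 to 0.41 for Insr, 0.12 to 0.33 for Foxo3, -0.29 to -0.086 for Akt1 and -0.37 to -0.087 for Pik3r1. The difference of the log2 ratio was -0.24 to 0.32 for Irs2 to Irs1, 0.042 to 0.46 for Akt2 to Akt1 and -0.022 to 0.20 for Foxo3 to Foxo1. The cause of the sign changes was not tested. Scaling by total counts alone shifted the median of all genes to -0.39. Counts of 417 or more per member limit the values less than the spread between 3 livers does.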
